A study of Mus musculus with 19 samples.

Results

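The 38 genes described here encode the proteins of blood coagulation and fibrinolysis together with their inhibitors and the enzymes of the vitamin K cycle. They were taken by gene symbol from a list of members, a rule that uses no measured value, and all 38 were found among the 24537 genes of the deposited table. Their transcripts were measured by poly(A) RNA sequencing of hepatocytes, the main parenchymal cells of the liver, which had been isolated by 2-step perfusion from male wild-type (WT) C57BL/6J mice. The mice were 10 young animals of 5 months and 9 old animals of 24 months, with 1 library per mouse and no treatment named in the labels. They were culled on 2 days, the first with 5 young and 5 old mice and the second with 5 young and 4 old mice. The labels give no separate sort or purification after the perfusion, so each library is a bulk sample. In such a sample, fewer cells of a type and less RNA per cell cannot be told apart. The comparison asks how each member's level differed between old and young hepatocytes.

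Coagulation is a cascade of serine proteases, most of them made by hepatocytes, secreted as inactive zymogens and circulating in plasma. Tissue factor with factor VII, or the contact proteases, lead to active factor X, which with its cofactor factor V cuts prothrombin to thrombin, and thrombin turns fibrinogen into fibrin. Antithrombin, heparin cofactor II, tissue factor pathway inhibitor and the protein C and protein Z systems restrain the cascade, and plasmin dissolves the clot under the control of antiplasmin and other inhibitors. Several liver-made members, fibrinogen first among them, are also acute phase genes, which hepatocytes raise during inflammation.

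Libraries held from 17381439 to 19583059 counts in genes in the young and from 18156240 to 20287628 in the old. Hepatocyte markers (11 of 12 listed genes in the table) summed to 103328 to 164495 CPM in young and 123721 to 205830 CPM in old libraries. Albumin (Alb) alone gave 61168 to 116311 CPM in young and 93212 to 157473 CPM in old libraries. Young libraries 1184, 1186 and 1188, described below, were at 62616, 61168 and 62194 CPM, and the other young at 103017 to 116311 CPM. Of the 11 markers 2 were called higher in old mice (Alb and Apoa1), beside 16.3% of all genes. Lower were 5 (Cps1, Pck1, Tat, Ass1 and Hpd), beside 14.5%. Without those 3 young libraries 1 was called higher and 5 lower, beside 14.6% and 12.5%. CPM are counts scaled to a common library total, corrected here by edgeR's trimmed mean of M-values (TMM) factors. Markers of other liver cells were also present, and none of the 40 endothelial, macrophage and stellate markers was at 0 in any library. The endothelial markers summed to 206 to 377 CPM in young and 222 to 712 CPM in old libraries, with 10 of 14 past the test for a higher level in old mice. Macrophage markers summed to 107 to 524 CPM and 73.5 to 3611 CPM, with 14 of 14 higher, and stellate markers to 51.3 to 136 CPM and 144 to 512 CPM, with 12 of 12 higher. Without the 3 young libraries named above, 12 of the 14 macrophage markers were higher, and the endothelial and stellate counts were unchanged. The platelet and megakaryocyte markers summed to 3.79 to 9.41 CPM in young and 7.27 to 107 CPM in old libraries. Of these 10 genes 3 could be tested and all 3 were higher (2 without the 3 young libraries), while Pf4, Ppbp, Gp1ba, Gp1bb, Gp9, Gp6 and Treml1 were at 0 in some libraries. Old library 1187 had the highest sum on each of these 4 lists.

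A few libraries stood apart before any age comparison. The acute phase gene Saa2, which encodes a serum amyloid A protein, was at 6078, 10148 and 3659 CPM in young libraries 1184, 1186 and 1188, all of the first cull day. In the other 7 young libraries it was at 9.39 to 22.4 CPM and in the 9 old libraries at 16.6 to 481 CPM. Results are given over all 19 libraries and again over the 16 libraries without those 3, which leaves 2 young mice on the first cull day. That exclusion was drawn up with earlier results of these data known. It removes young mice alone, by the level of an acute phase gene, so for genes that were high in the same 3 libraries the 16-library p-values are conditional on it. A further library, old 1189, had the highest level among the old for 12 members, with Saa2 at 63.5 CPM.

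Of the 38 members, 34 passed edgeR's filter on low counts, and F13a1, Serpina5, Plat and A2m did not. Over 19 libraries, 10 of the 34 differed between ages at an adjusted p under 0.05 in edgeR's quasi-likelihood test with cull day as a covariate, beside 30.9% of all 12269 genes tested. Adjusted p-values are from this test unless another is named. The 9 higher in old mice were the protease zymogens F7 and F10, the kininogens Kng1 and Kng2, the inhibitor Tfpi, the plasminogen activator Plau, the antiplasmin Serpinf2, and Hgfac and Apoh. Mug1 was the 1 lower in old mice. Without young library 1180, or without young library 1188, 6 members were called. Among all genes 16.3% were called higher and 14.5% lower, so the member share of 29.4% in either direction was close to the background, and the share called higher was 26.5%. Without Plau, which passed the filter only through the old libraries, 9 of 33 were called (27.3%) and 8 were higher (24.2%). The median log2 fold change over the 34 was 0.15, against -0.0034 over all genes tested, and 25 of the 34 values were above 0, beside 49.6% of all genes.

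Over the 16 libraries, 12 of the 34 members were called and all 12 were higher in old mice, beside 27.2% of 12354 genes called in either direction and 14.6% called higher. None was called lower, where 12.5% of all genes were. Mug1 was the 1 member lower at an unadjusted p under 0.05, and DESeq2 called 1 member lower, also Mug1. Of the calls, 7 were shared by both sets of libraries (F7, F10, Kng1, Kng2, Tfpi, Plau and Serpinf2). The 5 calls gained were the fibrinogen chains Fga, Fgb and Fgg, protein S (Pros1) and the protein Z-dependent inhibitor Serpina10. For all 5, the 3 libraries left out were above the other 7 young. These calls and the count of 12 are therefore conditional on the exclusion. All 5 were also called on the second cull day, from which no library was dropped. The 3 calls lost were Mug1, Hgfac and Apoh. The median log2 fold change over the members was again 0.15, with 27 of 34 above 0, against -0.0082 over all genes, of which 48.8% were above 0. Without Plau 11 of 33 were called.

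**Figure D1:**
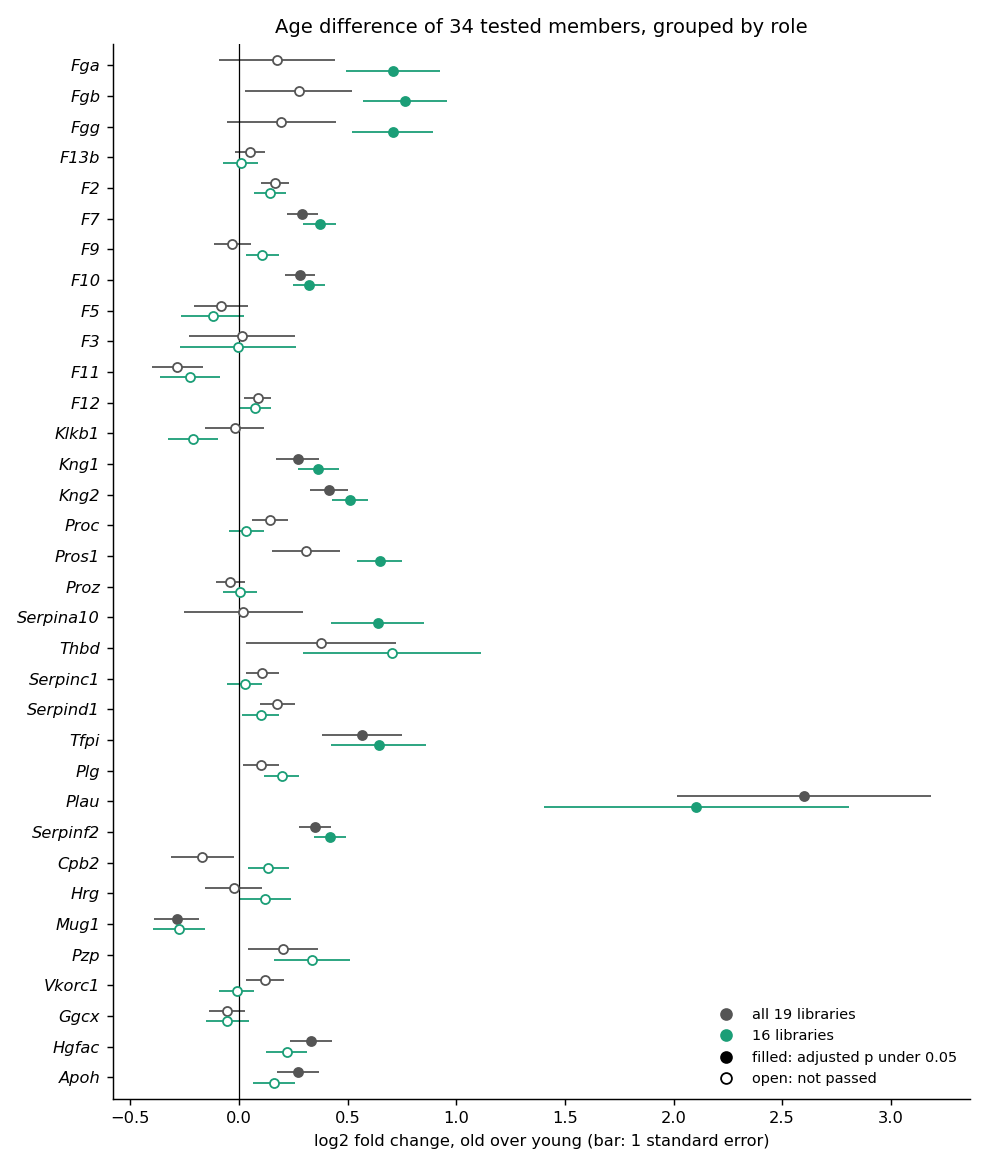
Log2 fold change of old against young for each of the 34 members tested, with standard error, over all 19 libraries and over the 16 libraries without the 3 young libraries of Saa2 above 1000 CPM. Fga, Fgb, Fgg, Pros1 and Serpina10 lay at 0.02 to 0.31 in the first fit and at 0.64 to 0.76 in the second, and Plau lay far to the right in both, at 2.60 and 2.11.

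Levels between genes were compared per kilobase of counted transcript (RPKM, which is the TMM-scaled CPM divided by that length). In young mice Fgb was highest at 5304 ± 2740 RPKM (SD, n = 10), followed by Fgg at 3958 ± 2175 and Fga at 2622 ± 1546. Apoh followed at 1856 ± 311 RPKM, then Pzp at 1251 ± 383, Kng1 at 1118 ± 187, Plg at 1105 ± 181 and Serpinc1 at 1053 ± 110. The means of neighbours in this order lay within 1 SD of each other among the fibrinogen chains, and among Pzp, Kng1, Plg and Serpinc1. Within each of the 19 libraries, however, the order of the chains was the same, Fgb above Fgg above Fga. Zymogens of the common and extrinsic pathways ranged from F2 (prothrombin) at 889.9 ± 60.7 RPKM to F7 at 52.3 ± 4.63. The 8 lowest members were F3, Tfpi, Thbd, Plau, A2m, Serpina5, F13a1 and Plat, from 1.46 down to 0.015 RPKM. Members took 3.67% to 8.67% of all counts in a library, and the fibrinogen chains alone 1.34% to 5.09%.

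**Figure D2:**
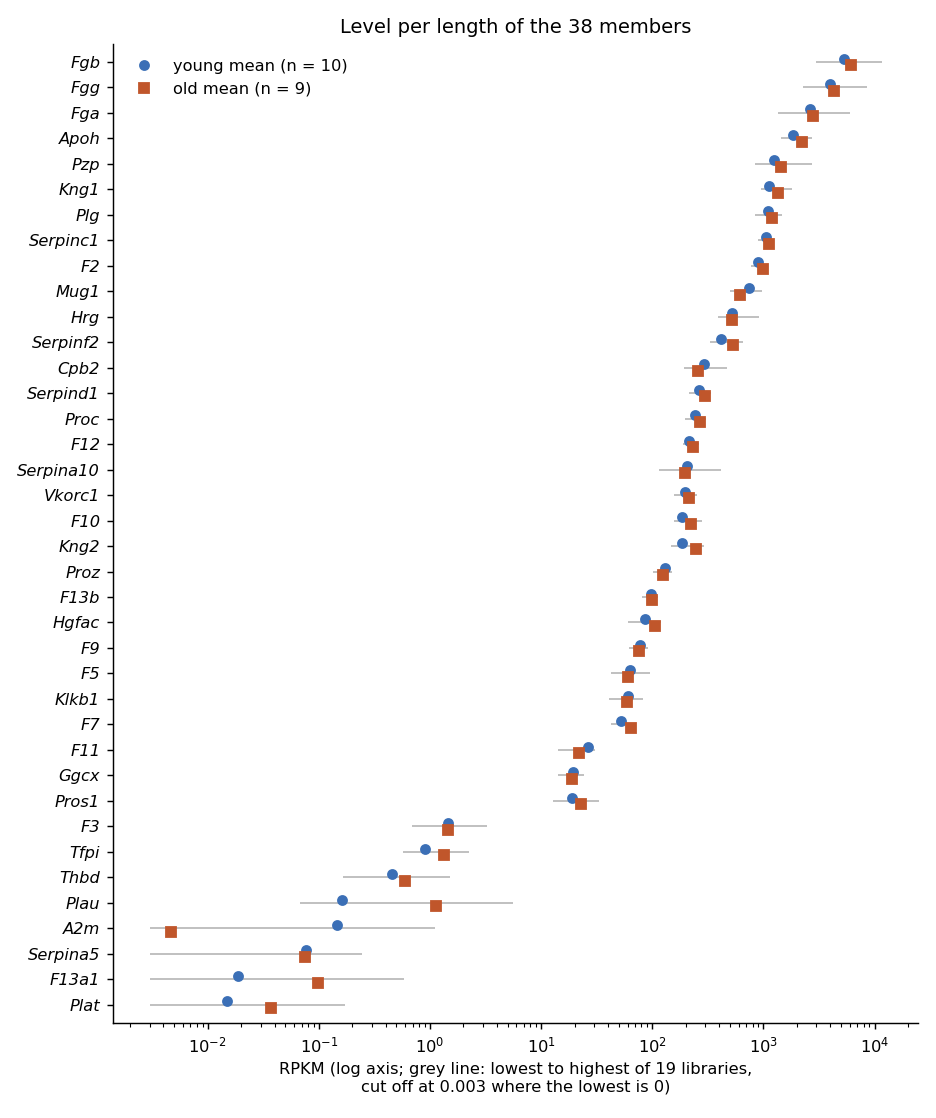
Level of each of the 38 members per kilobase of transcript (RPKM, log axis) in young and old libraries, ordered by the young mean. The fibrinogen chains lead, and the 8 members with a young mean under 2 RPKM form the low end.

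Fga, Fgb and Fgg encode the chains of fibrinogen, the precursor of the fibrin clot, and lie side by side on mouse chromosome 3 of the mm10 build (GRCm38). Fgg spans 83007724 to 83015056 and Fga 83026153 to 83033617 on the forward strand, and Fgb spans 83042246 to 83049863 on the reverse strand. On the second cull day, Fga was at 4524 to 6343 CPM in the 5 young and at 8456 to 9840 CPM in the 4 old libraries. Fgb was at 5007 to 6694 CPM in these young and 10029 to 11491 CPM in these old libraries. Fgg was at 3815 to 4943 CPM against 7340 to 7846 CPM. Ages did not overlap for any of the chains on that day, and the log2 fold changes were 0.70, 0.84 and 0.75 with adjusted p of 0.0017, 0.00058 and 0.00061.

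On the first cull day the ages overlapped for all chains. Fga was at 5711 and 6009 CPM in young libraries 1180 and 1182, and at 14273, 19348 and 14366 CPM in young libraries 1184, 1186 and 1188, the 3 with Saa2 above 1000 CPM. The old libraries of that day, 1181, 1183, 1185, 1187 and 1189, were at 7495, 5309, 7502, 8095 and 20213 CPM. High Fga was thus measured in 3 young libraries with high Saa2 and in 1 old library with Saa2 at 63.5 CPM. In that old library Hp, Orm1 and Lcn2, at 6858, 1444 and 62.8 CPM, were below the 3 young libraries. Other acute phase genes there were within the range of those 3: Fgl1 at 1789.6 CPM (1111 to 1849.8), Apcs at 763 CPM (271 to 825), Itih3 at 2702 CPM (1534 to 3123) and Itih4 at 6083 CPM (3894 to 6152). These genes were picked after their values were seen. Log2 fold changes on the first day alone were -0.29 for Fga, -0.23 for Fgb and -0.30 for Fgg, none past the threshold.

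Pooled over both days, the result for fibrinogen depended on the 3 young libraries. Over 19 libraries Fga differed by a log2 fold change of 0.18 ± 0.27 (SE, adjusted p = 0.65), Fgb by 0.27 ± 0.25 (adjusted p = 0.42) and Fgg by 0.19 ± 0.25 (adjusted p = 0.58). Without old library 1189 alone these were -0.0065, 0.12 and 0.048, and without young library 1186 alone 0.32, 0.40 and 0.34. Over 16 libraries the values were 0.71 ± 0.22 (adjusted p = 0.027), 0.76 ± 0.19 (adjusted p = 0.011) and 0.71 ± 0.19 (adjusted p = 0.013). That is a 1.63- to 1.70-fold higher level in old mice. Leaving out old library 1189 as well gave 0.54, 0.62 and 0.56, and the calls held. Without young library 1180 or young library 1182 the adjusted p of Fga was 0.061 or 0.056, while Fgb and Fgg stayed past the threshold. The other-cell score, the mean log2 CPM of the 40 endothelial, macrophage and stellate markers, left 0.59, 0.72 and 0.70 as a further covariate over 16 libraries, with adjusted p of 0.35, 0.20 and 0.20. Over 19 libraries the same covariate gave -0.21, -0.073 and -0.14, none past the threshold. Most of the markers in the score were called higher in old mice. A call lost with this covariate therefore cannot tell age from other cells. The part of other cells in the result was not otherwise tested.

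**Figure D3:**
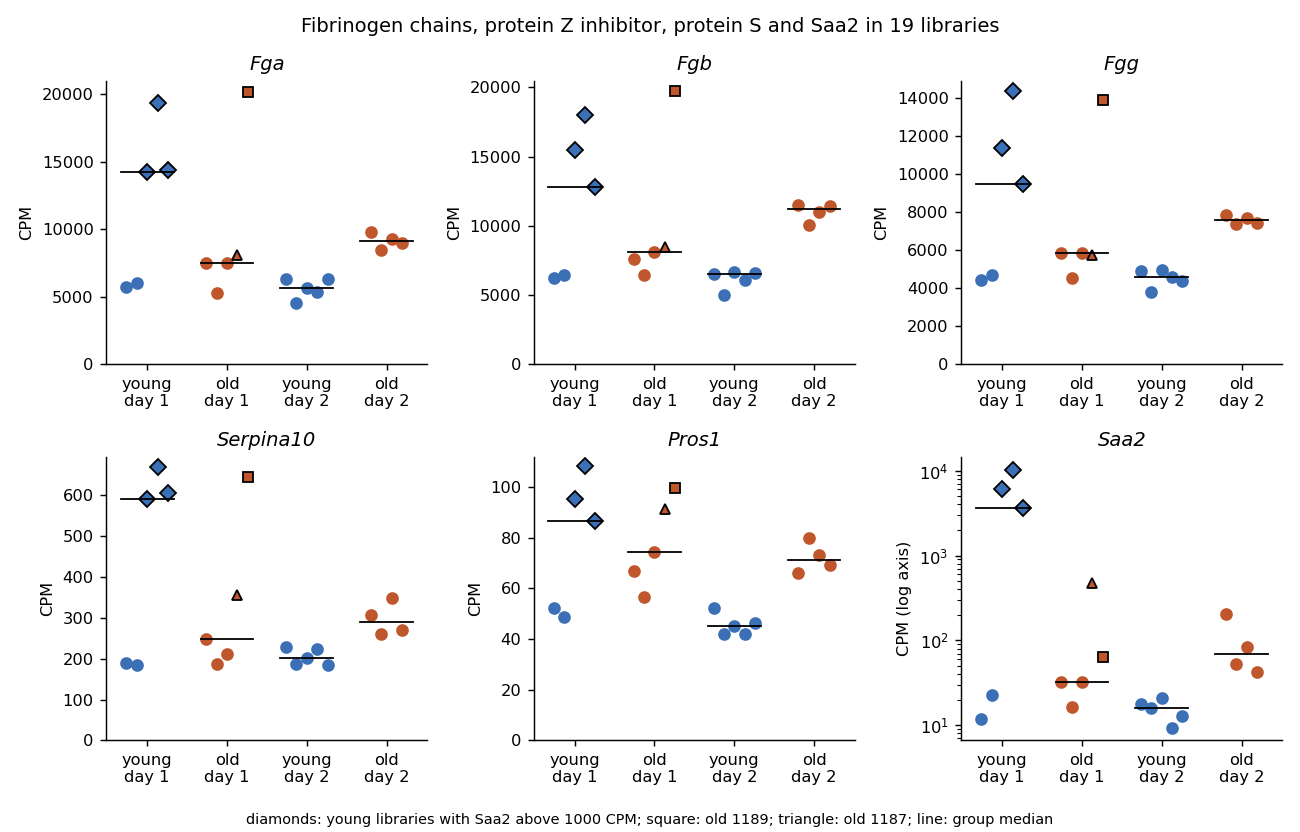
Level of Fga, Fgb and Fgg in CPM for every library, by age and cull day, with the 3 young libraries of Saa2 above 1000 CPM drawn apart. On the second cull day every old library lies above every young one, while on the first day the highest values are from those 3 young libraries and old library 1189.

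The proportions of the chains varied less than their levels. Per kilobase, Fga made up 19.4% to 24.5% of the trio over the 19 libraries, Fgb 42.7% to 48.8% and Fgg 30.8% to 34.4%. The highest Fga shares, 24.5%, 23.3% and 23.2%, were in libraries 1188, 1189 and 1186, all high in fibrinogen. Library 1184, also high, was at 21.1%. Whether the proportions changed with the level was not tested. The coefficient of variation of their levels was 52% to 59% over all 10 young libraries and 8.5% to 11% over the 7 without high Saa2. F13b, the carrier subunit of the fibrin crosslinking factor XIII, was at 192 to 264 CPM in young and 193 to 267 CPM in old libraries, with a log2 fold change of 0.05 ± 0.07 over 19 libraries (adjusted p = 0.61).

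Promoter sequences are shown for the fibrinogen chains, Pros1 and Kng2, members called higher over the 16 libraries whose windows held at least 1 of 2 motifs linked to interleukin-6 signalling. Tfpi, a low-level member, also met this and is not shown. The windows run from 250 bases before to 50 bases after the RefSeq start on GRCm38.p6 and are written 5′ to 3′ on the gene's strand. Capitals mark matches to CTGGGAA, the core of the type II interleukin-6 response element, or to the STAT palindrome TTCNNNGAA. They lie at chr3:83025903-83026202 (Fga, forward), chr3:83049814-83050113 (Fgb, reverse), chr3:83007474-83007773 (Fgg, forward), chr16:62854057-62854356 (Pros1, forward) and chr16:23029052-23029351 (Kng2, reverse).
Fga: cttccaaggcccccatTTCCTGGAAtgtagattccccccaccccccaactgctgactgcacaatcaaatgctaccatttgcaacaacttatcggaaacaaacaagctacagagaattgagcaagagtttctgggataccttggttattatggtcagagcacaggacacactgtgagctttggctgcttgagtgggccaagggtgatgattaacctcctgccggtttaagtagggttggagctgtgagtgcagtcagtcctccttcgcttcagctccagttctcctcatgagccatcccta
Fgb: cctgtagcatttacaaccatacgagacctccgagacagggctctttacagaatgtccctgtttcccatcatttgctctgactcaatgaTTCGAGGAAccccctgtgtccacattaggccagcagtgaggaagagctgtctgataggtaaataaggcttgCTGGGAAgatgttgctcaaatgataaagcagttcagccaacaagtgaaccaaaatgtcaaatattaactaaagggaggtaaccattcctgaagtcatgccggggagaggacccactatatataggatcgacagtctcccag
Fgg: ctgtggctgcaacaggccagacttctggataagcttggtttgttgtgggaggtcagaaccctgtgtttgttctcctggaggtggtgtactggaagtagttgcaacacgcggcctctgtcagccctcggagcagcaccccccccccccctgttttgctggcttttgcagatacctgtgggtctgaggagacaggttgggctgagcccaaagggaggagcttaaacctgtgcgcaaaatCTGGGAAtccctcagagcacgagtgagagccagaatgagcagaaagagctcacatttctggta
Pros1: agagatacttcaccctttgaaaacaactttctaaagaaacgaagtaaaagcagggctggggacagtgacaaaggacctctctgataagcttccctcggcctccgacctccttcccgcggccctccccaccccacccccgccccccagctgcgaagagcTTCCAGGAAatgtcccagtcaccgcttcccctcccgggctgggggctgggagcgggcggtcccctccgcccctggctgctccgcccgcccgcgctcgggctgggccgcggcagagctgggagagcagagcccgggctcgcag
Kng2: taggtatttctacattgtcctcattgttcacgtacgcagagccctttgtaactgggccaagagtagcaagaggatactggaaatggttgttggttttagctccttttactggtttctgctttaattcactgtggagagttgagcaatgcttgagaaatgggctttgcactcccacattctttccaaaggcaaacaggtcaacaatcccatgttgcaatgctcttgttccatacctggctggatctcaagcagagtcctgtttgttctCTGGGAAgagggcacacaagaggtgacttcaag

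Searched on both strands, CTGGGAA was in 5 of the 30 member windows available (16.7%: Fgb, Fgg, Kng2, Tfpi and F9) and in 11.02% of all 32544 windows of that length. The Fgb match began 91 bases and the Fgg match 13 bases before the start, and the Kng2 match was downstream of it. TTCNNNGAA was in 5 of 30 (16.7%: Fga, Fgb, Hgfac, Pros1 and F9) and in 8.33% of all windows, beginning 234 bases before the start in Fga, 162 in Fgb and 92 in Pros1. In F9 the same bases matched both motifs. The HNF1 core GTTAAT was in 8 member windows (26.7%) against 7.13% of all windows. The degenerate C/EBP consensus TTNNGNAA was in 19 (63.3%) against 40.67%. A match is a string of letters in a window and no binding was measured.

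Among the vitamin K-dependent zymogens, F7 and F10 were higher in old mice and F2 and F9 were not called. F7, the partner of tissue factor, lies on chromosome 8 (13026034 to 13035805) beside F10 (13037308 to 13056676). F7 was at 78.2, 98.2 and 107 CPM (lowest, median and highest) in young and at 95.1, 124 and 132 CPM in old libraries. Its log2 fold change was 0.29 ± 0.07 over 19 libraries (adjusted p = 0.0057) and 0.37 ± 0.08 over 16 (adjusted p = 0.0036). F10, which is cut to the prothrombin-activating protease, was at 417, 506 and 541 CPM in young and 496, 592 and 746 CPM in old libraries. It differed by 0.28 ± 0.07 (adjusted p = 0.0056) and by 0.32 ± 0.08 (adjusted p = 0.0074). The ages overlapped for F7 and F10 over all libraries and were apart on the second cull day. Both kept the call over 19 libraries when the other-cell score was added, at 0.33 and 0.31. Over 16 libraries with the score F7 was called at 0.51 (adjusted p = 0.014), and F10 was not, at 0.39 (adjusted p = 0.069).

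F2, prothrombin, was at 1559, 1801 and 1950 CPM in young and at 1701, 1987 and 2208 CPM in old libraries, a log2 fold change of 0.16 ± 0.06 (adjusted p = 0.058). It passed the threshold under DESeq2 (adjusted p = 0.014), limma-voom (adjusted p = 0.011), library totals alone (adjusted p = 0.010) and a stricter filter (adjusted p = 0.042). F9, factor IX, gave -0.03 ± 0.09 (adjusted p = 0.80). Its level was 237 to 246 CPM in the 3 young libraries with high Saa2, all above the 173 to 227 CPM of the other young. The enzymes that make these proteins functional, the carboxylase Ggcx and the vitamin K reductase Vkorc1, gave -0.05 ± 0.08 and 0.12 ± 0.09, neither past the threshold. The cofactor F5 and tissue factor F3 gave -0.08 ± 0.12 and 0.01 ± 0.24, and F3 was low, at 1.28 to 6.11 CPM.

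In the contact pathway the kininogens were called higher and the proteases were not called. Kng1 and Kng2 encode kininogens, which carry bradykinin and bind the contact proteases, and both lie on chromosome 16 (23058300 to 23082078 and 22985852 to 23029101). Kng2 was at 236, 292 and 415 CPM in young and 344, 388 and 469 CPM in old libraries. Its log2 fold change was 0.41 ± 0.09 (adjusted p = 0.0026) over 19 libraries and 0.51 ± 0.08 (adjusted p = 0.00085) over 16. Without the 3 young libraries its highest young value was 296 CPM, below every old library. Kng1 was at 1840, 2070 and 3078 CPM in young and 2207, 2469 and 3512 CPM in old libraries, with 0.27 ± 0.10 (adjusted p = 0.044) and 0.36 ± 0.10 (adjusted p = 0.013). The 19-library call of Kng1 was lost in 13 of 19 fits that left out a library, with adjusted p up to 0.085, and kept without 1181, 1183, 1185, 1186, 1187 or 1238. It was also lost with no filter (adjusted p = 0.092) and with no cull day term (adjusted p = 0.057). Adding the other-cell score ended both 19-library calls, at 0.17 for Kng1 (adjusted p = 0.37) and 0.33 for Kng2 (adjusted p = 0.057). Over 16 libraries with the score Kng1 was at 0.33 (adjusted p = 0.24) and Kng2 stayed called at 0.50 (adjusted p = 0.038). As reads of related genes could have been split between them, the sum of Kng1 and Kng2 is also given, 2456 ± 406 CPM in young (SD, n = 10) and 3001 ± 431 CPM in old libraries (SD, n = 9). F11, F12 and Klkb1, the zymogens of factor XI, factor XII and plasma kallikrein, gave -0.28 ± 0.12 (adjusted p = 0.072), 0.09 ± 0.06 (adjusted p = 0.31) and -0.02 ± 0.13 (adjusted p = 0.92). F11 was at 46.5 to 68.1 CPM in young and 31.7 to 63.2 CPM in old libraries, and DESeq2 put it just past the threshold (adjusted p = 0.049).

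Of the protein C and protein Z systems, Pros1 and Serpina10 were called over 16 libraries and not over 19. Pros1 encodes protein S, the cofactor of activated protein C, and lies on chromosome 16 (62854307 to 62929342). It was at 41.8 to 52.4 CPM in the 7 other young libraries, at 86.6 to 108 CPM in the 3 young with high Saa2 and at 56.7 to 99.7 CPM in old libraries. Its log2 fold change was 0.31 ± 0.16 (adjusted p = 0.14) over 19 libraries and 0.65 ± 0.11 (adjusted p = 0.00091) over 16, where every old library was above every young one. Over 19 libraries limma-voom put it past the threshold (0.38, adjusted p = 0.044). The call over 16 libraries held with each further library left out. It is conditional on the exclusion, as the 3 libraries dropped were above the other young. Serpina10, on chromosome 12 (103616675 to 103631444), encodes the inhibitor that works with protein Z against active factor X. It was at 185 to 229 CPM in the other young, 589.9 to 669 CPM in the 3 young and 186 to 646 CPM in old libraries. It gave 0.02 ± 0.28 (adjusted p = 0.96) and 0.64 ± 0.21 (adjusted p = 0.038), and the second call was lost in 8 of 16 fits that left out a library (adjusted p up to 0.090), those without 1180, 1182, 1236, 1237, 1239, 1240, 1242 or 1244. With the other-cell score over 16 libraries, Pros1 was at 0.43 (adjusted p = 0.080) and Serpina10 at 0.41 (adjusted p = 0.51). Over 19 libraries with the score they were at -0.012 (adjusted p = 0.97) and -0.43 (adjusted p = 0.38).

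Proc (protein C), Proz (protein Z) and Thbd (thrombomodulin) were not called in either set of libraries. Over 19 libraries they gave 0.14 ± 0.08, -0.04 ± 0.07 and 0.38 ± 0.35. Thbd, which is known for its place on endothelial cells, was at 0.615 to 3.12 CPM in young and 1.09 to 5.59 CPM in old libraries, the highest being 1187. Without that library its log2 fold change was 0.097. Adding the other-cell score over 19 libraries turned the value of 0.38 to -0.63 (adjusted p = 0.099).

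Across these genes, the 3 young libraries with high Saa2 were all above the other 7 young for 9 members (Fga, Fgb, Fgg, F7, F9, Pros1, Serpina10, Plg and Cpb2), beside 9.39% of all genes. They were all below the other young for 5 members (Klkb1, Proc, Serpinc1, Serpind1 and Vkorc1), beside 11.1% of all genes, and overlapped them for 20. The 5 included antithrombin (Serpinc1), at 1939 to 2040 CPM in the 3 and 2080 to 2611 CPM in the other young, and heparin cofactor II (Serpind1), at 468 to 531 and 569.5 to 681 CPM. Groups of 3 and 7 split this way were not compared by a test.

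Among the inhibitors of thrombin and tissue factor, Serpinc1 and Serpind1 gave 0.11 ± 0.08 (adjusted p = 0.31) and 0.18 ± 0.08 (adjusted p = 0.10) between ages over 19 libraries. Serpind1 passed with library totals alone (adjusted p = 0.049) and under limma-voom (adjusted p = 0.023). Tfpi, the inhibitor of tissue factor and factor VII, is on chromosome 2 (84440723 to 84476759) and was low, at 1.73, 2.74 and 3.85 CPM in young and 2.70, 3.86 and 6.76 CPM in old libraries. It rose by 0.57 ± 0.19 (adjusted p = 0.027) over 19 libraries and by 0.64 ± 0.22 (adjusted p = 0.040) over 16. Its highest value was in old library 1187, and without that library the 19-library value was 0.43 (adjusted p = 0.059), and the call was also lost without 1180, 1188 or 1242. The 16-library call was lost in 7 of 16 fits that left out a library (adjusted p up to 0.11), those without 1180, 1181, 1182, 1237, 1240, 1242 or 1243. Adding the other-cell score brought it to 0.05 (adjusted p = 0.86) over 19 libraries and -0.0081 over 16.

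In fibrinolysis, Plau and Serpinf2 were called higher in old mice while Plg, Cpb2 and Hrg were not called. Serpinf2, on chromosome 11 (75431736 to 75439501), encodes alpha-2-antiplasmin, the main plasma inhibitor of plasmin. It was at 717, 891 and 1184 CPM in young and 1028, 1126 and 1440 CPM in old libraries, a log2 fold change of 0.35 ± 0.07 (adjusted p = 0.0023). Over 16 libraries the value was 0.42 ± 0.07 (adjusted p = 0.0015), and the highest young library, at 959.5 CPM, was below the lowest old one. It stayed called when the other-cell score was added, at 0.35 over 19 and 0.47 over 16 libraries.

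Plau encodes urokinase, which activates plasminogen, and lies on chromosome 14 (20836662 to 20843388). Its level was low, at 0.158, 0.249 and 1.27 CPM in young and 0.935, 1.28 and 13.0 CPM in old libraries. These were 3 to 26 counts in young and 18 to 298 in old libraries. Plau passed the filter on low counts only through the old libraries, where it is high, so its call is a description and adds no support to the count of members higher. The young value of 1.27 CPM was in library 1244 and the old value of 13.0 CPM in library 1187, whose macrophage markers summed to 3611 CPM. The log2 fold change was 2.60 ± 0.59 (adjusted p = 0.0036) over 19 libraries and 2.11 ± 0.70 (adjusted p = 0.037) over 16. Without library 1187 it was 1.82 over 19 libraries and 1.59 over 16, and without young library 1244 it was 3.11 and 2.73. The 16-library call was lost in 8 of 16 fits that left out a library (adjusted p up to 0.11), those without 1180, 1182, 1235, 1237, 1239, 1240, 1242 or 1243. Adding the other-cell score brought it to 0.99 (adjusted p = 0.18) over 19 libraries and 0.12 (adjusted p = 0.92) over 16.

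Plg, plasminogen itself, was at 2283, 2995 and 4033 CPM in young and 2762, 3268 and 3566 CPM in old libraries, with 0.10 ± 0.08 (adjusted p = 0.39) over 19 libraries. On the second cull day it was at 2283 to 2879 CPM in young and 3208 to 3315 CPM in old libraries, and was called there at 0.31 ± 0.09 (adjusted p = 0.027). Cpb2, a carboxypeptidase that slows fibrin breakdown, gave -0.17 ± 0.15 (adjusted p = 0.40). It was at 535 to 683 CPM in the 3 young with high Saa2 and 298 to 386 CPM in the other young. Hrg, a histidine-rich plasma glycoprotein that binds plasminogen, gave -0.03 ± 0.13 (adjusted p = 0.90).

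Of the alpha-2-macroglobulin family, broad protease inhibitors of plasma, Mug1 fell and Pzp was not called over 19 libraries. Mug1, on chromosome 6 (121838541 to 121889057), was at 2338, 3493 and 4478 CPM in young and 2346, 2747 and 3806 CPM in old libraries, a log2 fold change of -0.29 ± 0.10 (adjusted p = 0.043). The call was lost in 13 of 19 fits that left out a library (adjusted p up to 0.079), and kept without 1184, 1185, 1238, 1239, 1242 or 1243. It was also lost over 16 libraries (-0.28, adjusted p = 0.090), with library totals alone (adjusted p = 0.082), a stricter filter (adjusted p = 0.054), limma-voom (adjusted p = 0.11), no cull day term (adjusted p = 0.099) and the other-cell score (adjusted p = 0.14). Its close relative Mug2, not a member, was at 530 to 1009 CPM in young and 952 to 1501 CPM in old libraries and rose by 0.63 ± 0.12 (adjusted p = 0.0008). The way reads shared by the pair were counted is not given in the sources used here. Their sum was 4197 ± 782 CPM in young (SD, n = 10) and 4005 ± 569 CPM in old libraries (SD, n = 9). Pzp gave 0.20 ± 0.16 (adjusted p = 0.35) over 19 libraries and 0.41 ± 0.10 (adjusted p = 0.013) on the second cull day, at 3879 to 4934 CPM in young and 5507 to 6311 CPM in old. Leaving out 1 library, its 19-library value ran from 0.065 without old library 1189 to 0.28 without old library 1183. The span of Pzp overlaps that of Gm10069 on the other strand. Those of F5, Cpb2 and Serpind1 likewise overlap Gm16548, Mir466f-3 and Pi4ka. The strand setting of the counting is not given in the sources used here.

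Hgfac and Apoh were called over 19 libraries and not over 16. Hgfac, on chromosome 5 (35041509 to 35048461), encodes the activator of hepatocyte growth factor, a protease related to factor XII. It was at 131, 187 and 230 CPM in young and 178, 236 and 261 CPM in old libraries, with 0.33 ± 0.09 (adjusted p = 0.014), and 0.22 ± 0.09 (adjusted p = 0.091) over 16 libraries. The 3 young libraries with high Saa2 were at 131 to 165 CPM. Apoh, on chromosome 11 (108395297 to 108414396), encodes a phospholipid-binding plasma glycoprotein. It was at 1698, 2124 and 2641 CPM in young and 2094, 2633 and 3193 CPM in old libraries, with 0.27 ± 0.10 (adjusted p = 0.040) and, over 16 libraries, 0.16 ± 0.10 (adjusted p = 0.23). The 19-library call of Apoh was lost in 11 of 19 fits that left out a library (adjusted p up to 0.087), and kept without 1182, 1187, 1189, 1238, 1239, 1240, 1243 or 1244. It was also lost with no filter (adjusted p = 0.10) and with no cull day term (adjusted p = 0.065).

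**Figure D4:**
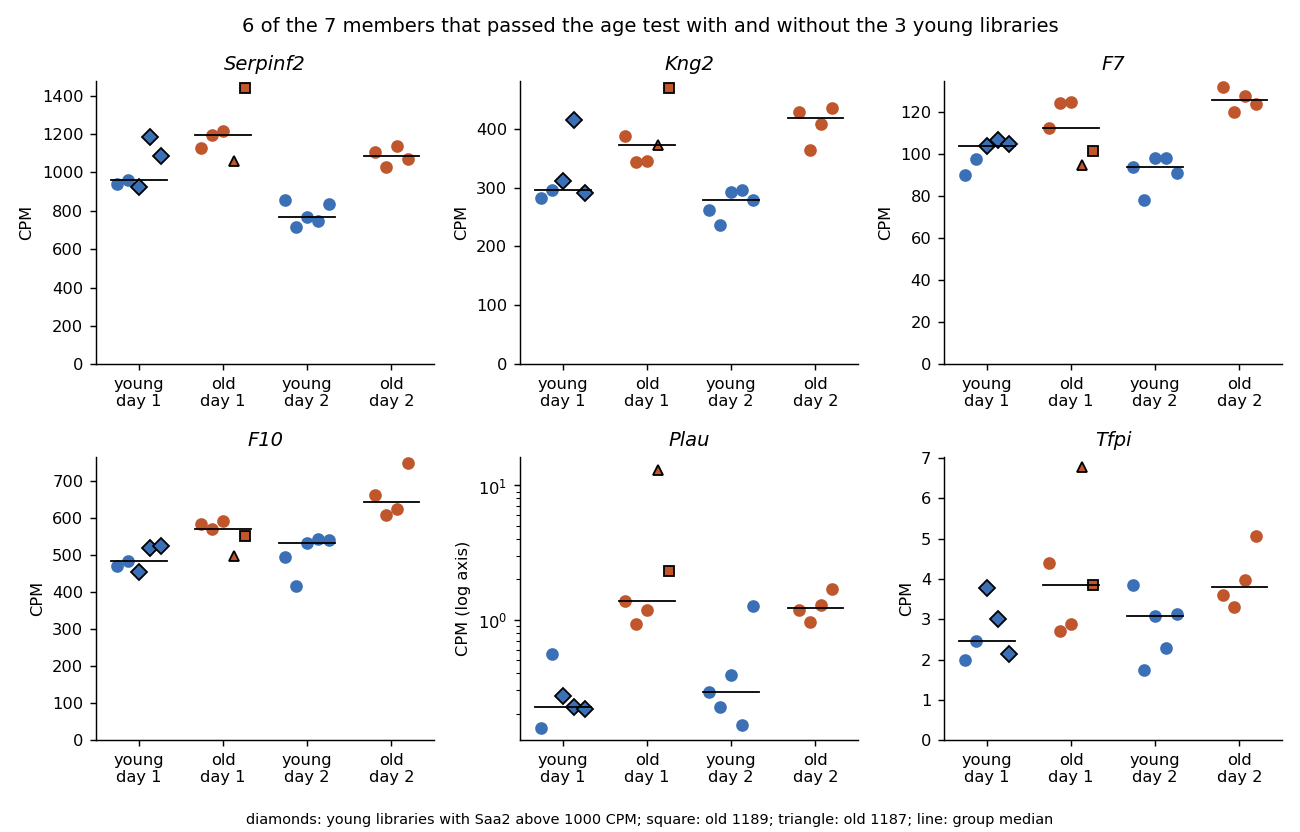
Level in CPM for every library, by age, of 6 of the 7 members called over both 19 and 16 libraries, with the 3 young libraries of Saa2 above 1000 CPM drawn apart. Serpinf2 and Kng2 are apart between ages once those 3 are set aside, F7 and F10 overlap, and Plau has 1 young library (1244) among the old values and 1 old library (1187) far above the rest.

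The 4 members under the filter were tested singly by an exact two-sided permutation test on CPM, over the 31752 age labellings that keep each day's numbers, and p-values were adjusted over the 4. F13a1, the catalytic subunit of factor XIII, had 0 to 3 counts in young and 0 to 52 counts in old libraries, with an exact p of 0.047 (adjusted 0.094). Its highest value, 2.27 CPM, was in old library 1187. A2m had 0 to 92 counts in young and 0 to 1 in old libraries, with an exact p of 0.029 (adjusted 0.094). Its 3 highest libraries were young 1186 at 5.13 CPM, 1184 at 1.09 CPM and 1188 at 0.27 CPM, those with high Saa2. Serpina5, the protein C inhibitor, had at most 9 counts in a library (exact p = 0.99), and Plat, the tissue-type plasminogen activator, at most 10 (exact p = 0.34). None of the 4 passed after adjustment, and 2 were under 0.05 before it.

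Cull days differed in how many members were called. On the second cull day alone 12 of 34 members were called, all higher in old mice, beside 19.3% of all genes called and 12.2% called higher. Of these, 10 were also called over the 16 libraries, and the other two were Plg and Pzp. Every old library was above every young one for 13 members that day (the 12 and F2), beside 10.9% of all genes, and for 0 members below, beside 7.78%. On the first cull day alone 1 member, Plau, was called, beside 3.67% of all genes. Over 16 libraries ages did not overlap for 3 members (Kng2, Pros1 and Serpinf2), beside 2.24% of all genes above and 1.85% below, and over 19 libraries for none, beside 0.994% and 0.725%. In a test of the difference itself, the age by cull day interaction, no member passed (0 of 34, smallest adjusted p = 0.70) and no gene of all tested did by edgeR. At an unadjusted p under 0.05 there were 9 members (Fgb, Fgg, F7, F9, F11, Pros1, Plg, Plau and Cpb2), beside 6.51% of all genes, and DESeq2 also called 0 members. Of the 30 acute phase genes tested, 23 were under an unadjusted interaction p of 0.05 by edgeR, and DESeq2 called 4.

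The endothelial, macrophage and stellate markers were set beside the member calls through the other-cell score. Because most of these 40 markers were higher in old mice, the score and age cannot be fully told apart. Calls lost with the score are given as a description. With that score in the fit, 5 of 34 members were called over 19 libraries (F7, F10, Serpinf2, Hgfac and Apoh), beside 12.4% of all genes. Over 16 libraries 3 were called (F7, Kng2 and Serpinf2), beside 3.29% of all genes. F7 and Serpinf2 were called over both sets of libraries, with and without the score.

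Other genes of haemostasis were read from a list of 40 chosen for function, of which 31 could be tested. Over 19 libraries 7 were higher (22.6%) and 3 lower, beside the same background of 16.3% and 14.5%. The higher ones with the smallest p were Mug2, the plasminogen receptor Plgrkt (log2 fold change 1.13), the von Willebrand factor protease Adamts13 (1.14), the protein S relative Gas6 (1.27) and the plasminogen-binding annexin Anxa2 (1.45). With the other-cell score Mug2 stayed called at 0.66, while Plgrkt was at 0.73 (adjusted p = 0.063), Adamts13 at 0.49 (adjusted p = 0.13), Gas6 at 0.64 (adjusted p = 0.16) and Anxa2 at 0.38 (adjusted p = 0.42). The lower ones were the cargo receptor of factors V and VIII, Lman1 (-0.32), the hepatocyte growth factor receptor Met (-0.37) and the annexin partner S100a10 (-0.44). With the score S100a10 stayed called at -0.68 (adjusted p = 0.024), while Lman1 (adjusted p = 0.082) and Met (adjusted p = 0.24) were not called. Over 16 libraries 11 of these 31 were higher, beside 14.6% of all genes, and none was called lower, beside 12.5%. There 3 were lower at an unadjusted p under 0.05, and DESeq2 called 1, Lman1.

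Of 30 acute phase genes tested, edgeR called 0 over 19 libraries, 2 were under an unadjusted p of 0.05, and DESeq2 called 1. Over 16 libraries 22 of the 30 were past the threshold in the higher direction, beside 14.6% of all genes. The exclusion dropped young libraries for a high level of Saa2, a gene of this list. That count is therefore conditional on the exclusion and is given as a description only. On the second cull day, from which no library was dropped, 23 of the 30 were called, beside 19.3% of all genes. Of 17 liver-enriched transcription factors tested, 3 were lower over 19 libraries, beside 14.5% of all genes. Their log2 fold changes were -0.41 for Onecut2, -0.47 for Nr5a2 and -0.30 for Hnf4a (adjusted p = 0.027). Over 16 libraries Hnf4a was not called (-0.29, adjusted p = 0.073). With the other-cell score none of the 3 was called, at -0.28, -0.42 and -0.17 (adjusted p = 0.14, 0.11 and 0.35).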

How the data were processed

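Poly(A) RNA from Trizol-chloroform extracts was sequenced as stranded paired-end libraries, per the labels' protocols. All libraries share 1 table of estimated counts, deposited by the authors (multiples of 0.5, 29.2% of cells not whole). Per the file headers it was written by HOMER over exons of RefSeq transcripts on mm10 without normalization, and the submitters' processing notes also name STAR. Strand setting, handling of reads with several matches and software versions are not given in the sources used here.

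Counts were rounded to whole numbers (ties to even), although the tests had been drawn up for plain counts. They were tested with edgeR 4.0.16 (R 4.3.3): TMM scaling, filterByExpr by age (minimum count 10), cull day as covariate, quasi-likelihood test, Benjamini-Hochberg adjustment over all genes, threshold 0.05. A standard error is the size of the log2 fold change over the root of its F statistic. The other-cell score used a prior count of 2. The procedure was tested on simulated data. Of 24537 genes, 6045 had no read. Promoter windows were from RefSeq (GRCm38.p6), and 30 of 38 members matched by symbol; A2m, Kng1, Plat, Plau, Plg, Proc, Serpina10 and Thbd did not.

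The members and lists were chosen with earlier results of these data known. Every member is accounted for, with library values for those called over 19 libraries or gaining or losing the call over 16. From each other list the called genes with the 5 smallest p in each direction are named, and Saa2 by its level, except for the acute phase list, none of which was called over 19 libraries. Library numbers are those of the labels. Alternatives were DESeq2 1.42.0, its size factors, library totals alone, limma-voom 3.58.1 with sample weights, other filters, leaving out the cull day term, fitting 1 day at a time, adding the other-cell score, and each library left out. For 1 of the other lists, a called gene is not reported here.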

Additional observations from a re-analysis of the deposited data

Results flagged for a closer look

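In 14 of 68 groups of values (each member in the young and in the old libraries), a single library lay far from all others of its age. A library was flagged by its gap to the nearest other library, taken as a share of the group's range in CPM. The chance rate of this rule, about 1 in 20, is for a single group. The groups here share the same libraries and pool both cull days, so the count of 14 cannot show an excess over that rate. It is given as a description. Old library 1189 was the highest in 7 of the 14 flagged groups. It had Fga at 20213 CPM (the other old 5309 to 9840), Fgb at 19731 CPM (6432 to 11491) and Fgg at 13885 CPM (4546 to 7846). In the same library Kng1 was at 3512 CPM (the other old 2207 to 2813), Serpina10 at 646 CPM (186 to 355), Serpinf2 at 1440 CPM (1028 to 1214) and Pzp at 12828 CPM (4349 to 7017).

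Old library 1187 had the highest Plau at 13.0 CPM (the other old 0.935 to 2.29) and the highest Thbd at 5.59 CPM (1.09 to 3.16). It also had the lowest Serpinc1 at 1919 CPM (2341 to 2671). Young library 1186 had the highest Kng1 at 3078 CPM (the other young 1840 to 2338), Kng2 at 415 CPM (236 to 311) and Hrg at 1594 CPM (676 to 1036). Young library 1244 had the highest Plau at 1.27 CPM (the other young 0.158 to 0.561).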

How the results depend on the processing

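With library totals alone the median of all genes was 0.042 on the log2 scale. No paired analysis was possible because the library numbers are not shared between ages. Repeats of the 16-library fit were chosen after seeing the data. The age by cull day interaction called 0 members in every alternative run. The cause of each change was not tested, and the single-day fits also hold fewer libraries. Counts were lowest, among the members tested, for F3, Tfpi, Thbd and Plau.

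The 10 members called (9 higher) became 1 (1 higher) on the first cull day alone and 5 (5 higher) with the other-cell score, and 6 to 10 (6 to 9 higher) without 1 library. The 1 lower member became 0 over 16 libraries, with library totals alone, a stricter filter, limma-voom, no cull day term, either cull day alone and the other-cell score, 2 with no filter and with DESeq2, and 0 to 2 without 1 library. Over 16 libraries the 12 calls became 3 with the other-cell score and 8 to 14 without 1 library, and the 0 lower calls became 1 with DESeq2. The number of other haemostasis genes called went from 10 to 0 on the first cull day and to 4 with the other-cell score (8 to 12 without 1 library). Those 4 were Mug2, S100a10, Serpine2 and Asgr2, of which Serpine2 and Asgr2 were not called without the score. Acute phase calls went from 0 to 22 over 16 libraries, 23 on the second cull day, 2 with limma-voom or the other-cell score, 1 with no filter, DESeq2 or no cull day term, and 0 to 4 without 1 library. The 4 transcription factor calls became 0 on the first cull day. With the other-cell score 2 factors were called, and 1 of them, Cebpb, was not called without the score.

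Log2 fold changes that changed sign were, on the first cull day alone, -0.29 for Fga, -0.23 for Fgb, -0.30 for Fgg, 0.044 for Klkb1, -0.0071 for Pros1, -0.44 for Serpina10 and -0.077 for Plg. On the second cull day alone they were 0.15 for F9, -0.30 for F3, 0.069 for Proz, 0.21 for Cpb2, 0.13 for Hrg and -0.026 for Vkorc1. With the other-cell score they were -0.21 for Fga, -0.073 for Fgb, -0.14 for Fgg, 0.27 for Klkb1, -0.012 for Pros1, 0.0094 for Proz, -0.43 for Serpina10 and -0.63 for Thbd. Of the 12 members called over 16 libraries, Tfpi changed sign there with the score, to -0.0081. Over 16 libraries they were 0.11 for F9, -0.0051 for F3, 0.0049 for Proz, 0.13 for Cpb2, 0.12 for Hrg and -0.012 for Vkorc1. With library totals alone they were 0.011 for F9, 0.021 for Klkb1 and 0.015 for Hrg, and with limma-voom 0.029 for F9, 0.0029 for Klkb1, 0.022 for Proz and 0.014 for Hrg. With no filter they were -0.020 for F3 and -0.011 for Serpina10, and with no cull day term -0.0054 for F3 and -0.052 for Serpina10. Leaving out 1 library at a time, signs changed within ranges of -0.0065 to 0.32 for Fga, -0.073 to 0.00012 for F9, -0.080 to 0.21 for F3, -0.087 to 0.051 for Klkb1, -0.058 to 0.0013 for Proz, -0.14 to 0.14 for Serpina10 and -0.097 to 0.082 for Hrg. Apart from Tfpi, none of these was past the threshold over 19 libraries. Calls gained over 19 libraries by leaving out 1 library were F11 without 1185 or 1242, F2 without 1187 or 1239, Serpind1 without 1182 or 1189 and Pros1 without 1186.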
